A study of Mus musculus with 2 samples.

Results

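Myoblast adhesion and fusion genes were followed in esophageal tissue of E18.5 mouse embryos, on 1 array of wild-type tissue and 1 array of tissue labelled null for Myf5 and Myod. The group consists of 10 named genes, chosen by gene symbol: Mymx, Mymk (formerly Tmem8c), Cdh15, Cdh2, Megf10, Cdon, Boc, Jam2, Jam3 and Ncam1. They are 10 of the 18193 genes that the array names, and they are covered by 25 probe sets, each a set of short probes against 1 transcript region. Both labels give the BALB/c strain, and no treatment is recorded for either tissue. The second group is labelled as a double knockout of Myf5 and MyoD. The labels do not state how many embryos gave RNA to each array. Neither group has a replicate, so each difference compares 2 RNA samples and no test between them was possible.

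Skeletal muscle fibers form when single myoblasts recognise each other, adhere and merge their membranes into a shared cytoplasm. Cadherins and immunoglobulin-type receptors bring the cells together, and a pair of muscle-specific membrane proteins, myomaker and myomixer, carries out the merger. Myf5 and MyoD are the basic helix-loop-helix transcription factors that commit cells to this lineage, and such factors bind short DNA motifs called E-boxes. In the mouse esophagus the outer muscle is laid down largely as smooth muscle and becomes striated late in gestation and after birth.

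The deposited values are MAS5 signals, where MAS5 is Affymetrix's method of reducing a probe set to a single linear intensity. A signal under 489, the median of all probe sets on both arrays, was treated as low and raised to that limit before a ratio was taken. A ratio with 1 array below the limit is a lower bound and is written "at least". The only error available is how far the probe sets of a gene differ among themselves, with an SD of 0.56 on the log2 scale. It equals 1.47-fold and leaves out all variation between animals. Signals of different probe sets cannot be set against each other, so levels are compared between arrays and not between genes.

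The arrays were first checked against their labels. Myf5 read 4072 in wild type and 496 in the tissue labelled null, 8.22-fold lower. The second signal lay just above the limit of 489, so the size of this fold is uncertain. Myod1 read 2001 and 1698 at its brighter probe set, 1.18-fold lower and less than the spread between probe sets, while its second probe set was under the limit on both arrays. The probes may lie outside what was deleted, which the labels do not describe, and the second array is therefore referred to as null-labelled. The squamous keratin genes Krt4 and Krt13 and the basal epithelial factor gene Trp63, which mark esophageal epithelium, were above the limit on both arrays. Control probe sets gave 3' over 5' signal ratios between 6.96 and 14.2 for beta-actin and Gapdh over both arrays, and their part in the ratios below was not tested.

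All 10 genes had at least 1 probe set above the limit on an array. On the null-labelled array 3 of them, Mymx, Mymk and Megf10, read at least 2-fold lower at their brightest probe set, and each of these was also past 4-fold. Among all 13315 measured genes 5.36% were at least 2-fold lower, and 1.07% were past 4-fold in that direction. None of the 10 read at least 2-fold higher, against 6.01% of all measured genes. The other 7 lay within 2-fold, Cdh15 just inside that line. The median log2 ratio of the 10 was -0.54, beside 0.086 for all measured genes. This median depends on the choice of probe set: it was -0.00041 when each gene took the median of its measured probe sets.

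**Figure D1:**
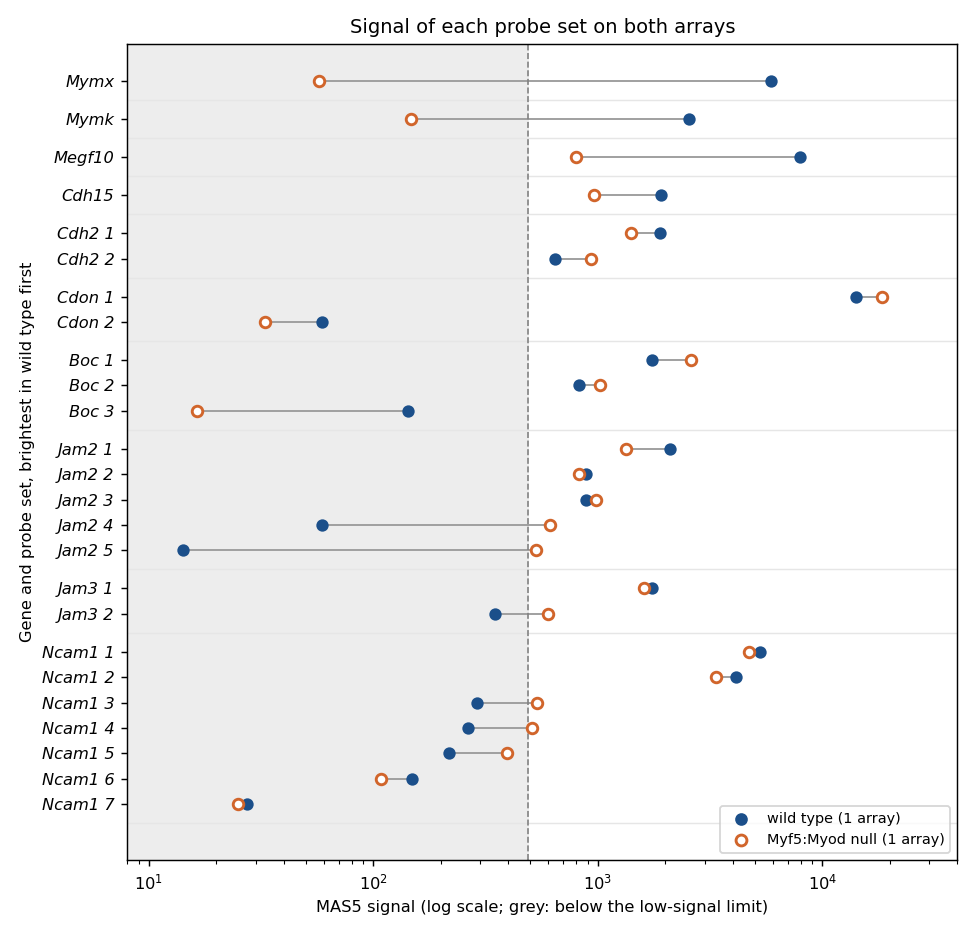
MAS5 signal (log axis) of all 25 probe sets of the 10 genes on the wild-type array (filled circles) and the null-labelled array (open circles), 1 array each, with signals below the limit of 489 shaded. Mymx and Mymk cross from above the limit to below it, Megf10 moves from 7919 to 799, and the widest gaps among the others are in probe sets with a signal below the limit.

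Both membrane fusion genes read lower on the null-labelled array. Mymx encodes myomixer, a small membrane protein needed to open the fusion pore. Its 1 probe set (1456242_at) read 5879 in wild type and 57.5 in the null-labelled tissue. The wild-type signal was well above the limit and the other was well below it, which makes Mymx at least 12.0-fold lower. A limit at the 25th percentile moved the bound from -3.59 to -5.13 on the log2 scale. Mymk encodes myomaker, the multi-pass membrane protein that starts the mixing of the outer membrane layers. Its 1 probe set (1419050_at) read 2552 and 147, so Mymk was at least 5.22-fold lower. Raising the limit to the 75th percentile shrank the bound for Mymk to 1.82-fold, and lowering it to the 25th raised the bound to 15.2-fold. Each bound was larger than the spread between probe sets of a gene, and neither gene has a second probe set to set beside the first.

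Megf10 encodes a receptor with repeated EGF-like domains that is known from muscle satellite cells, where it takes part in the balance between proliferation and differentiation. It also serves in the engulfment of dying cells. Its 1 probe set (1429841_at) read 7919 in wild type and 799 in the null-labelled tissue. Both signals were above the limit, so the ratio of 9.91-fold lower is a measured value and not a bound. Of the 10346 genes with both signals above the limit, 25 had a lower ratio. This rank and the later ones leave out genes whose ratio is a bound. Some of those lay lower than Megf10 at -3.31, among them Mymx (-3.59 or lower) and the myosin gene Myh8 (-6.18 or lower). A limit at the 75th percentile put the second Megf10 signal under it, and the gene was then at least 5.66-fold lower.

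The myoblast cadherins differed less. Cdh15 encodes M-cadherin, a calcium-dependent adhesion protein found mainly on myoblasts and satellite cells. Its 1 probe set (1418602_at) read 1904 and 965, which is 1.97-fold lower, with a log2 ratio of -0.98. This is 1.76 times the SD between probe sets and narrowly misses the 2-fold line. Of the genes measured on both arrays, 5.22% had a lower ratio than Cdh15. Its log2 ratio passed the line after centring on the median ratio (-1.07), after quantile normalization (-1.12) and after loess on signal (-1.11). Both Cdh15 signals were above the limit.

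Cdh2 encodes N-cadherin, which myoblasts share with neurons and many mesenchymal cells. Its brighter probe set (1418815_at) read 1897 and 1405, 1.35-fold lower. Its second (1449244_at) read 644 and 936, 1.45-fold higher. The probe sets of Cdh2 thus went opposite ways, each by less than the spread between probe sets, and no direction can be given for the gene. The difference between Cdh15 and Cdh2 was not tested.

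RefSeq promoter sequences were given for 2 of the 10 genes, Cdh15 and Cdon. They are shown as the 2 entries the table holds for these genes, and nothing here tests whether their E-boxes bear on the ratios. Each run covers 250 bases before and 30 bases after the annotated start on the GRCm38.p6 build, plus strand for both, with capitals marking each CANNTG E-box. The Cdh15 run is chr8:122848124-122848403 and the Cdon run is chr9:35451826-35452105.
Cdh15: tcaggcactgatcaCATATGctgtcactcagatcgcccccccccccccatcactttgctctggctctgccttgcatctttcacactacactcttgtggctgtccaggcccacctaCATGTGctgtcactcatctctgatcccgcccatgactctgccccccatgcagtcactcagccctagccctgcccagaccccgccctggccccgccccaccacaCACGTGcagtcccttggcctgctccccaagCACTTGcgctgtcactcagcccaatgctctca
Cdon: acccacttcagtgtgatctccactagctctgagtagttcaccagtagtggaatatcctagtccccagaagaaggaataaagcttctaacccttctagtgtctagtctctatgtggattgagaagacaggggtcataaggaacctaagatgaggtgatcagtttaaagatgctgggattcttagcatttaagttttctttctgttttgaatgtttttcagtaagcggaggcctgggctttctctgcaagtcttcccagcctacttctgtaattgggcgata
The Cdh15 run holds 4 copies of CANNTG, and the Cdon run holds 0. The motif reads the same on both strands. At least 1 copy was present in 70.1% of all 32851 promoters of this length in the table, and at least 4 copies in 5.40%. Counted from the gene start, a copy reading CATATG begins at position -236 and one reading CATGTG at position -135. A copy reading CACTTG begins at position -2 and runs across the start. The nearest copy wholly before the start reads CACGTG and begins at position -32. Neither run holds CAGCTG, present in 14.9% of promoters, or CACCTG and its reverse complement CAGGTG, of which at least 1 was present in 19.1%. A match describes letters only and is not a bound site.

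Cdon and Boc, the immunoglobulin-type co-receptors, read slightly higher on the null-labelled array. Both proteins bind cadherins in myoblasts and also act as co-receptors for Hedgehog ligands in many tissues. Cdon read 14058 and 18538 at its brighter probe set (1434957_at), 1.32-fold higher. Its second probe set was under the limit on both arrays, at 59.2 and 32.9, and gives no ratio. Boc read 1742 and 2605 at its brightest probe set (1427516_a_at), 1.50-fold higher. A second Boc probe set read 821 and 1025, 1.25-fold higher, and the third was under the limit at 143 and 16.4. Boc was the only one of the 6 genes with several probe sets for which more than 1 was measured and all of them went the same way. Its larger log2 ratio, 0.58, was 1.04 times the SD between probe sets, and that of Cdon, 0.40, was smaller than it. Among genes measured on both arrays 76.2% had a lower ratio than Cdon and 84.7% a lower ratio than Boc.

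The junctional adhesion molecules Jam2 and Jam3 bind each other across cells and are known from endothelium as well as from fusing myoblasts. Jam2 had 5 probe sets. The brightest (1436568_at) read 2086 and 1333, 1.57-fold lower. The next pair read 885 and 826, and 883 and 979, so they were 1.07-fold lower and 1.11-fold higher. The remaining pair was under the limit on the wild-type array only, at 58.9 and 14.1, and read 610 and 532 on the null-labelled array. Those bounds are at least 1.25-fold and at least 1.09-fold higher. Thus 2 of 5 Jam2 probe sets were below a ratio of 1 and 3 above it, and the median of the 5 log2 ratios was 0.12, against -0.65 for the brightest. Jam3 read 1744 and 1602 at its brighter probe set (1423503_at), 1.09-fold lower. Its second read 350 and 599, at least 1.23-fold higher. Of the ratios with both signals above the limit, that of the brightest Jam2 probe set alone exceeded the spread between probe sets. The bounds do not say how large the other differences are.

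Ncam1 encodes the neural cell adhesion molecule, present on myoblasts, nerve endings and glia and made in several splice forms. It had 7 probe sets. The brightest (1426864_a_at) read 5269 and 4703, 1.12-fold lower, and the next read 4142 and 3365, 1.23-fold lower. A further 2 were under the limit on the wild-type array only, at 289 and 264, and read 535 and 509 on the null-labelled array. The last 3 were under the limit on both arrays. Neither Ncam1 probe set above the limit on both arrays differed by more than the spread between probe sets.

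**Figure D2:**
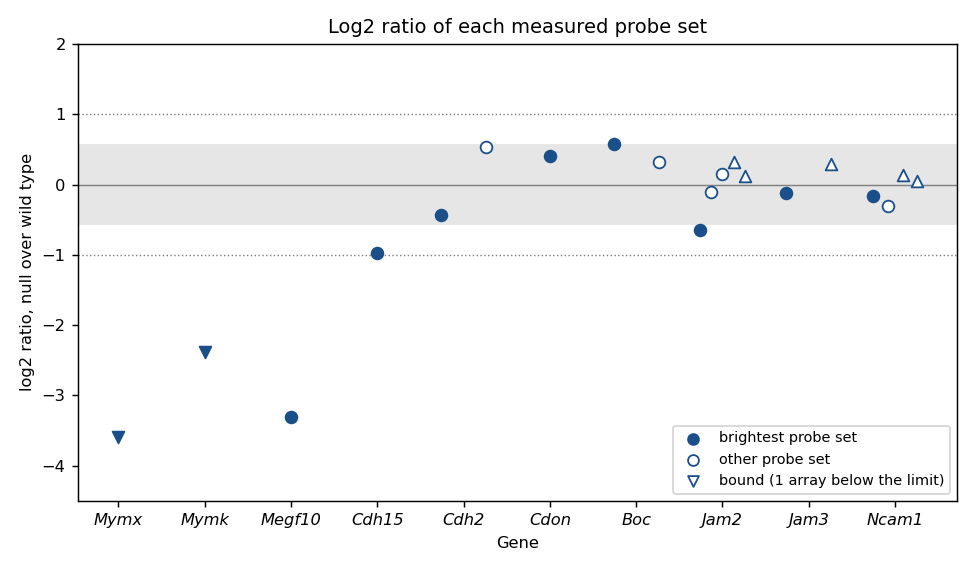
Log2 ratio (null-labelled array over wild type) for the 20 probe sets of the 10 genes that were above the limit on at least 1 array, with the brightest filled and bounds as triangles. The grey band is 1 SD between probe sets of 1 gene (0.56) and the dotted lines mark 2-fold; Mymx, Mymk and Megf10 lie below the lower line and Cdh15, at -0.98, just above it.

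The number of probe sets divided the group in the same way as the size of the ratio. The 4 genes with 1 probe set, Mymx, Mymk, Megf10 and Cdh15, had the 4 lowest ratios. The 6 genes with several had 16 measured probe sets, with ratios or bounds within 2-fold, between -0.65 and 0.58 on the log2 scale, with 6 below 0 and 10 above it. Among all measured genes 43.4% had a ratio below 0. Of the 10 above 0, 5 are bounds with only the wild-type signal under the limit. More probe sets reached the limit on the null-labelled array, 55.4% of all against 44.6% in wild type, and the part of this in those 5 was not tested. For the first 4 genes no second probe set can show how far the ratio depends on the probes. In whole tissue, fewer cells of a type and less RNA per cell cannot be told apart.

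Other genes of the same processes mostly had ratios or bounds within 2-fold, and a bound does not say how large a difference is. Of 37 measured genes of the wider fusion machinery, which covers actin regulators, phosphatidylserine receptors and membrane repair proteins, 1 was at least 2-fold lower and 2 were higher, with a median log2 ratio of 0.063. The ratio was a bound for 4 of the 37, and 5 more genes of the list, phosphatidylserine receptors among them, were not measured. The lower gene was Cav3, the muscle caveolin, which read 1347 and 66.1 and was at least 2.75-fold lower. The higher genes were Elmo1 and Dock5, a scaffold and an exchange factor of the kind that activates Rac. Elmo1 read 532 and 1520, 2.86-fold higher. Dock5 read 585 and 1188, 2.03-fold higher, and its second measured probe set had a bound of 1.10-fold. These counts lie below the shares of all measured genes.

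Of 17 measured cadherin-binding and integrin genes, 1 was lower and 0 higher, with a median of 0.095. The lower gene was Itgb1bp2, which encodes melusin, a striated muscle protein that binds the integrin beta chain. It read 4649 and 279, at least 9.51-fold lower. Of 15 measured partners of Cdon and Boc, 0 were lower and 2 were higher, with a median of 0.27. Of all measured genes 5.36% were lower and 6.01% higher by this measure, and 2 genes are too few to set the list apart. Shh, a Hedgehog ligand, read 7533 and 16523 at its brighter probe set, 2.19-fold higher, and its second gave a bound of 1.52-fold. Ptch1, a Hedgehog receptor, read 13884 and 33489, 2.41-fold higher, and its second measured probe set gave a bound of 1.30-fold.

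Of 22 measured immunoglobulin-family adhesion genes, 1 was lower and 0 higher, with a median of -0.21. The lower gene was Nectin3, a cell-cell adhesion receptor, which read 6509 and 2753 at its brightest probe set, 2.36-fold lower. Its other measured probe sets were 2.92-fold and 1.30-fold lower. In the Megf10 family and engulfment list, 8 genes were measured, 0 were lower and 1 was higher, with a median of 0.42. Megf6 was 2.03-fold higher at one probe set, from 634 to 1287, and at least 1.27-fold lower at another, from 622 to 303. Beside the 5.36% of all measured genes that were lower and the 6.01% higher, 1 gene is too few to set either list apart.

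**Figure D3:**
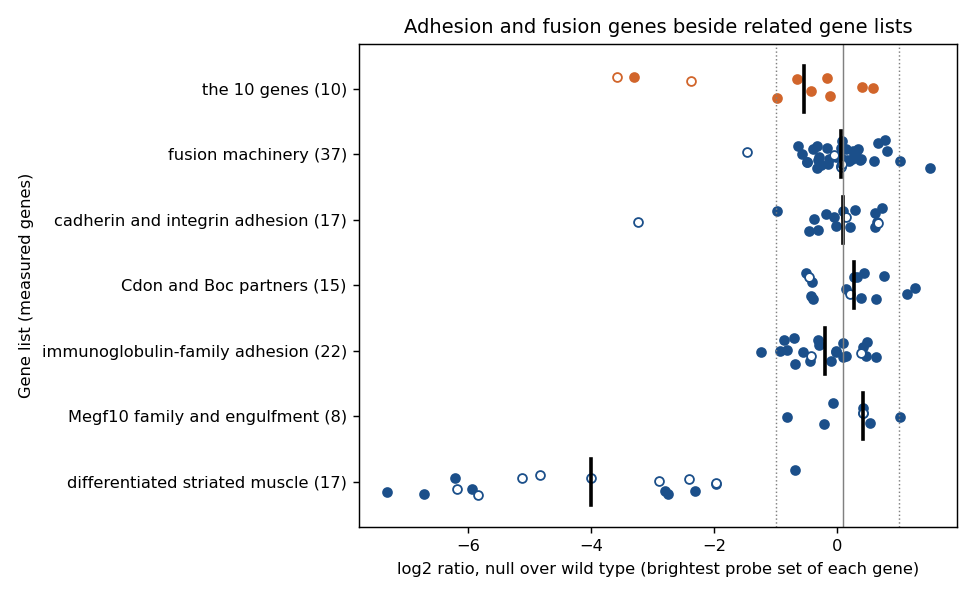
Log2 ratio (null-labelled array over wild type) for the brightest probe set of each measured gene, in the 10 adhesion and fusion genes (orange) and 6 related lists (blue), with bounds as open circles and the median of each list as a black bar. The dotted lines mark 2-fold and the grey line is the median of all measured genes, 0.086; the median of the differentiated striated muscle list, itself a bound, lies at -4.00.

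Genes of differentiated striated muscle also mostly read lower on the null-labelled array. Of 17 measured genes in that list, 16 passed 2-fold downwards and 0 upwards, beside 5.36% and 6.01% of all measured genes. The ratio was a bound for 8 of the 17, the middle one among them, so the median log2 ratio was -4.00 or lower. With bounds at their value, the lowest ratios were those of Myh3, the embryonic myosin heavy chain (161-fold lower), and the titin gene Ttn (105-fold). Acta1, the skeletal alpha-actin (74.4-fold), and Myh8, the perinatal heavy chain (at least 72.6-fold), came next. Other genes of the list whose ratio is a bound may lie lower than any of these. On the null-labelled array Myh3 read 507 and Ttn 528, just above the limit of 489, so the size of their folds is uncertain. The other measured Ttn probe sets were at least 44.3-fold, 3.65-fold and 3.61-fold lower. The remaining measured gene was Casq1, the calsequestrin of fast fibers, which was 1.61-fold lower and was named after its value was seen. The summed signal of the list, which its brightest probe sets carry, was 397688 in wild type and 15057 in the null-labelled tissue. That sum covers all 18 genes of the list, including 1 that was not measured. Cdh15, Cdh2, Cdon, Boc, Jam2, Jam3 and Ncam1 were each within 2-fold at the brightest probe set.

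Several of the 10 genes are also made outside muscle, so markers of other cells were read beside them. A summed signal is carried by the brightest probe sets of a list and can move apart from its median log2 ratio. The sums also include listed genes that were not measured, which the counts and medians leave out. Among all measured genes, 5.36% passed 2-fold downwards and 6.01% upwards. Beside these shares, 1 gene in a direction is too few to set any of the marker lists below apart. Whether the larger counts set a list apart was not tested. Of 10 measured neuron markers, 3 passed 2-fold downwards and 0 upwards (median -0.67), with a summed signal of 16167 in wild type and 10963 on the other array. The 3 were Dcx, Ret and Snap25, named after their values were seen. Of 8 glia markers 0 were 2-fold apart (median -0.029), with a summed signal of 39540 and 29338. Of 10 measured endothelial markers 1 was lower and 2 were higher (median -0.090), with a summed signal of 12908 and 10991. Of 8 smooth muscle markers 0 were lower and 2 higher (median 0.55), with a summed signal of 321319 and 650187. Mylk and Acta2 carry that sum, while Tagln and Cnn1 were 1.38-fold and 1.69-fold lower; these 4 were named after their values were seen. Of 9 fibroblast markers 1 was lower and 0 higher (median 0.21), with a summed signal of 353896 and 479522. Of 10 epithelial markers 1 was lower and 0 higher (median 0.060), with 498209 and 600866. Of 3 measured mesothelial markers 2 were lower (median -1.25), with 44852 and 19467. Upk1b carries most of that sum, at 40067 and 16855, and its probe sets ranged from 1.16-fold to 2.38-fold lower. The mesothelial markers Wt1 and Lrrn4 were under the limit on both arrays. These 3 genes were named after their values were seen. Of 3 measured white blood cell markers 2 were higher (median 1.14), with 16210 and 21216. The other 5 of that list were under the limit on both arrays. Csf1r carries most of that sum, at 14020 and 14108, while Ptprc was 8.57-fold and Lyz2 2.20-fold higher. Csf1r, Ptprc and Lyz2 were named after their values were seen. The part of all these cell types in the ratios of Cdh2, Cdon, Boc, Jam2, Jam3 and Ncam1 was not tested.

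**Figure D4:**
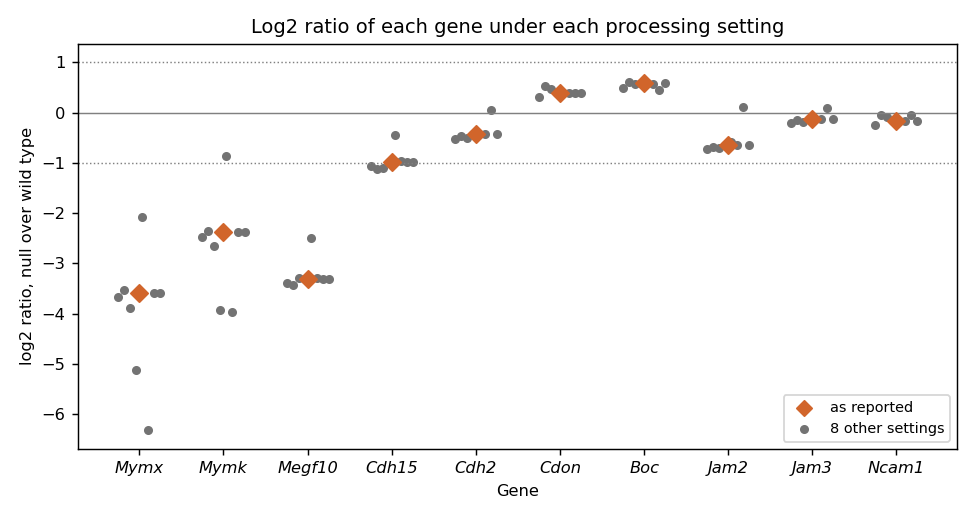
Log2 ratio of each of the 10 genes as reported (diamonds) and under 8 other processing settings (grey points), with dotted lines at 2-fold. The points of Mymx and Mymk are bounds except with no limit, where the pseudocount sets them. With the limit at the 75th percentile those of Megf10, Cdh15 and Jam2 are bounds too. Points from the median over probe sets include bounds for Jam2, Jam3 and Ncam1. Mymx and Megf10 stay below the lower line in every setting shown, Mymk leaves it in 1, and Cdh2, Jam2 and Jam3 each cross 0 in 1.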

How the data were processed

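Total RNA (6 µg per sample) was extracted with Trizol, labelled with biotin and hybridized to Affymetrix arrays, per the labels' protocols. The deposited table holds linear signal intensities that the authors computed with MAS5, as the submitters' processing notes name it without version or settings. Of 45101 probe sets, 64 are controls. Probe sets were named from the platform annotation held by GEO, possibly outdated, and symbols were updated by Entrez ID through RefSeq (GRCm38.p6), which held 34741 of the 34945 probe sets with 1 symbol. Another 932 had several symbols and 9160 had none, and these named no gene. A gene was represented by its probe set with the highest mean signal.

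The log2 ratios, limits and counts were computed with numpy 2.4.6, statsmodels 0.14.6 and pandas 2.3.3 under Python 3.11.15. The steps were tested on simulated data with known changes in bright genes only, where the low-signal limit played little part. Genes under the limit on both arrays were called not measured. Named were the 10 genes, Myf5 and Myod1, and in each related list up to 4 genes per direction at least 2-fold apart, with the largest ratios. Epithelial genes named to check the tissue, and genes said to be named after their values were seen, fall outside this rule. The genes and lists were chosen with earlier results of these data known. Alternatives were median centring, quantile normalization, loess (span 0.3), limits at the 25th and 75th percentiles, no limit, the median over probe sets per gene, omitting _x_at and _s_at probe sets, and a 4-fold threshold. The number of arrays limits the precision.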

Additional observations from a re-analysis of the deposited data

How the results depend on the processing

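The count of genes at least 2-fold lower was 3 as reported and between 2 and 4 over the alternatives that kept the 2-fold line. It was 4 after centring, quantile normalization and loess, which added Cdh15, and 2 with the limit at the 75th percentile, which removed Mymk. The count at least 2-fold higher was 0 in each of these alternatives. The 4-fold threshold changes only the line, and 3 genes were lower and 0 higher past it. The median log2 ratio of the 10 genes was -0.00041 when the median over probe sets stood for each gene and otherwise between -0.63 and -0.44. Loess moved the median of all measured genes by -0.11, and the limit at the 75th percentile moved it by -0.12.

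Raising the limit to the 75th percentile left a log2 bound of -2.07 for Mymx and -0.87 for Mymk, and lowering it to the 25th gave -5.13 and -3.92. These sizes follow the limit, since both null signals lay below it, and no fold is given for the setting without one. Megf10 had a bound of 5.66-fold at the raised limit and was up to 10.8-fold lower in the other settings. Mymx, Mymk, Megf10, Cdh15 and Ncam1 were below 0, and Cdon and Boc above 0, in each setting. Cdh2, Jam2 and Jam3 had log2 ratios of 0.053, 0.12 and 0.085 when their probe sets were summarised by the median. No paired analysis was possible because each group has 1 array. Without detection calls, the limit stands in for a background measurement.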
